A study of Mus musculus with 22 samples.

Results

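Gfp shRNA and scramble shRNA were the control conditions of this ribosome profiling study, and the libraries of these 2 controls were compared with each other. Members were all libraries labelled with either control shRNA, 10 of the 22 libraries of the series. They came from 2 lysates of cells with Gfp shRNA and 3 lysates of cells with scramble shRNA, and each lysate was sequenced once as RPF-seq and once as RNA-seq. All cells were NIH3T3, an immortalised line of mouse embryo fibroblasts, transduced with a lentiviral pLKO.1puro vector that expresses the short hairpin RNA, selected with puromycin, grown to confluency as 1 dish per replicate and treated with cycloheximide (100 µg/ml, 2 min) before lysis. Neither control hairpin is meant to lower a mouse transcript, and both control groups keep Denr, the gene that the other 12 libraries of the series target with 2 Denr shRNAs. Each control is 1 hairpin in transduced and selected cells, and whether these were pools or clones, and whether replicates came from separate transductions, was not given in the sources used here. An effect of a hairpin and a difference between the transduced cells or dishes that carry it cannot be told apart in this design.

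A short hairpin RNA is cut by Dicer into a small duplex, and 1 strand guides an Argonaute protein to matching transcripts. A control hairpin passes through the same machinery without an intended target, so that effects of virus, selection and hairpin processing are shared with the knockdown cells. Ribosome profiling sequences the stretches of mRNA that ribosomes shield from nuclease (ribosome-protected fragments, RPF), and parallel RNA-seq measures transcript abundance. Footprints on the main coding sequence (CDS) track the synthesis of the encoded protein. Footprints on the 5′ untranslated region (5′ UTR) can come from translation of upstream open reading frames. DENR acts with MCTS1 in reinitiation after such upstream reading frames, and EIF2D is a single protein with related domains. Values are RPKM (reads per kilobase of sequence, scaled to library size), RPF-seq and RNA-seq were scaled separately, and differences are Gfp minus scramble shRNA on the scale log2(RPKM + 0.1). A gene was called at a false discovery rate (FDR) below 0.1 in limma.

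Reads on CDS and 5′ UTR ranged from 12211415 to 21649878 in the 5 control RPF libraries and from 8514080 to 18678073 in the 5 control RNA libraries, with scramble replicate 3 holding the fewest RNA-seq and the most RPF-seq reads. Of 13 fibroblast markers, 12 were among the 10516 genes measured, and their summed RNA-seq level was 10988 to 12411 RPKM in the Gfp libraries and 9586 to 11775 RPKM in the scramble libraries. Markers of other cell types were sparse, with 2 of 10 epithelial genes and 1 each of 8 endothelial, 10 leukocyte, 10 adipocyte, 9 skeletal muscle and 8 neural genes measured. The adipocyte marker measured, Lpl, was at 55.2 to 82.05 RPKM with Gfp shRNA and at 54.8 to 62.5 RPKM with scramble shRNA. Endothelial and skeletal muscle markers summed to at most 1.55 RPKM in any control RNA library, neural markers to at most 4.28 RPKM and leukocyte markers to at most 15.8 RPKM.

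Denr was present in all control libraries. Its CDS level in RNA-seq was 165 and 174 RPKM in Gfp replicates 1 and 2, and 190, 185 and 189 RPKM in scramble replicates 1, 2 and 3. Both Gfp libraries lay below the 3 scramble libraries, a separation found for 27.9% of all genes in RNA-seq, and the difference was -0.15 ± 0.09 (SE) on the log2 scale (limma, adjusted p = 0.615), while the means with Denr shRNA1 and shRNA2 were 40.5 and 17.9 RPKM. In RPF-seq Denr was at 157 and 154 RPKM with Gfp shRNA and at 173, 179 and 152 RPKM with scramble shRNA, so the groups overlapped. Eif2d differed by 0.01 ± 0.11 in RNA-seq, and the sign of this value turned when 1 library was left out. Mcts1 in RNA-seq was at 6.74 and 7.73 RPKM with Gfp shRNA and at 8.16, 8.51 and 16.4 RPKM with scramble shRNA. The groups did not overlap (-0.53 ± 0.29, limma adjusted p = 0.591), and scramble replicate 3 was the only library above 10 RPKM. Footprints on the Mcts1 CDS were again highest in scramble replicate 3, at 22.3 RPKM against 11.7 to 14.9 RPKM in the other 4 libraries.

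The first question was how far apart the libraries of the 2 hairpins stand when all genes are considered. The distance between a pair of libraries was taken as the SD over 10516 genes of their difference in log2(CDS RPKM + 0.1). In RNA-seq, pairs with the same hairpin were 0.174 to 0.337 apart and pairs with different hairpins 0.245 to 0.466. The ranges overlapped, and the 2 Gfp libraries (0.319 apart) were farther from each other than Gfp replicate 2 was from scramble replicate 2 (0.245). In RPF-seq the same-hairpin distances were 0.233 to 0.336 and the different-hairpin distances 0.279 to 0.398. The mean different-hairpin distance exceeded the mean same-hairpin distance by 0.042 in RNA-seq (one-sided exact permutation test over the 10 splits of 5 libraries, p = 0.2) and by 0.048 in RPF-seq (p = 0.1 in the same exact test, the smallest value that 2 against 3 libraries can give). Scramble replicate 3 was the scramble library farthest from its group in both assays. Without it the excess was 0.037 in RNA-seq and 0.062 in RPF-seq.

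**Figure D1:**
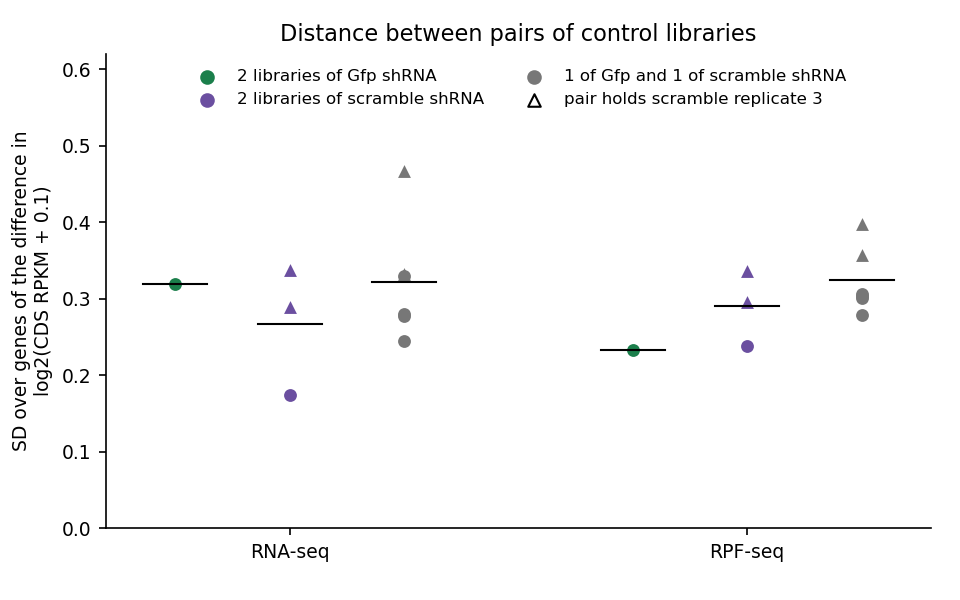
Distance between each pair of control libraries (SD over genes of the difference in log2(CDS RPKM + 0.1)), by assay, for pairs within Gfp shRNA, within scramble shRNA and between them; bars are means and triangles are pairs that hold scramble replicate 3. Distances between hairpins reached 0.466 in RNA-seq and 0.398 in RPF-seq, and both of these pairs hold scramble replicate 3.

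Gene by gene, the CDS of 10 genes differed in RNA-seq and the CDS of 216 genes differed in RPF-seq. All 10 RNA-seq calls (0.0951% of 10516 genes) were higher with Gfp shRNA. Of the 216 RPF-seq calls (2.05%), 150 were higher with Gfp shRNA (1.43%) and 66 lower (0.628%). At an unadjusted p below 0.05, 1010 genes (9.6%) passed in RNA-seq and 1746 (16.6%) in RPF-seq. Differences were small for most genes, with a median over all genes of 0.01 in RNA-seq and 0.02 in RPF-seq and with 33 and 52 genes beyond 2-fold. The calls depended on having both Gfp libraries. Without Gfp replicate 1 there were 0 RNA-seq and 19 RPF-seq calls, without Gfp replicate 2 there were 0 and 4, without scramble replicate 2 there were 3 and 70, and without scramble replicate 3 there were 6 and 316. Because all libraries are from bulk lysates, fewer cells that express a gene and less RNA per cell cannot be told apart.

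The same lysates gave both assays, so their values are set side by side. Of the 10 genes called in RNA-seq, 9 were also called in RPF-seq, and the tenth, Lmcd1, had an adjusted p of 0.1001 there. The 150 genes with more footprints in Gfp shRNA cells had a median log2 difference of 0.62 in RPF-seq and of 0.55 in RNA-seq. The 66 genes with fewer footprints had medians of -0.62 and -0.47. These genes were chosen by their RPF-seq values, so the RPF-seq medians are a description and no test of a difference between the assays. Whether footprints and transcripts differed by unequal amounts is the test of translation efficiency (TE, the log2 ratio of RPF to RNA in a lysate). In it 0 of 10516 genes passed (limma) and 233 genes (2.22%) had an unadjusted p below 0.05. That share is under the 0.05 that such a threshold passes on average when nothing differs. With 2 against 3 lysates, 0 calls cannot show that footprints and transcripts differed by equal amounts. An interaction term over all 10 libraries also gave 0 calls, with 126 genes at an unadjusted p below 0.05. That fit had no term for the lysate, so it ignored the pairing of the assays.

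**Figure D2:**
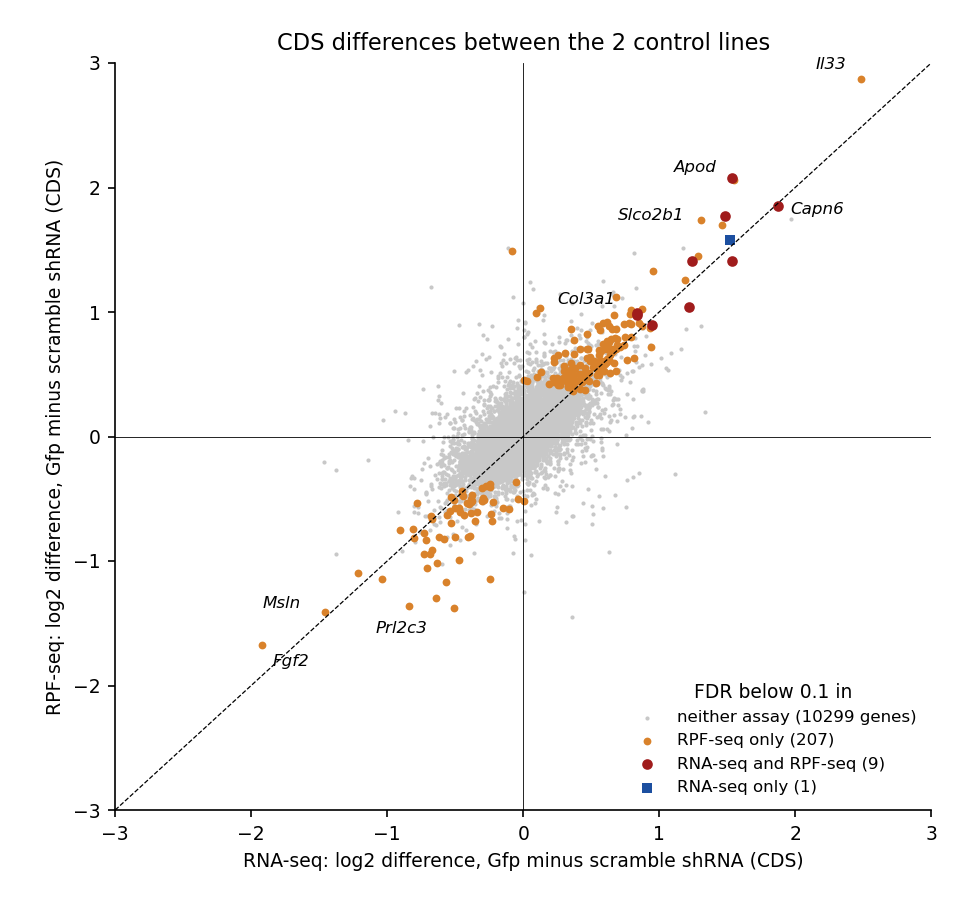
Log2 difference of the CDS (Gfp minus scramble shRNA) in RNA-seq on the x axis and in RPF-seq on the y axis, 1 point per gene, coloured by the assays in which limma called the gene at an FDR below 0.1; the dashed line marks equal differences. Most called genes lie near the line of equal differences, from Fgf2 at the lower left to Il33 at the upper right.

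Genes for secreted and matrix proteins led the increases. Il33, a cytokine of the interleukin 1 family that is released by damaged cells, lies at chr19:29925114-29960718 (GRCm38). Its footprint level was 7.83 and 8.72 RPKM in the Gfp libraries and 0.889, 1.09 and 1.17 RPKM in the scramble libraries, the largest increase in RPF-seq (log2 difference 2.87 ± 0.18, limma adjusted p = 0.00117). The groups were far apart although Il33 was read thinly, from 8 to 119 RPF reads per library. In RNA-seq Il33 was at 3.90 and 5.61 RPKM with Gfp shRNA and at 0.433, 0.681 and 1.40 RPKM with scramble shRNA. The RNA-seq libraries did not overlap either, and the difference of 2.48 ± 0.42 did not pass (adjusted p = 0.148).

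Apod, which encodes the secreted lipid carrier apolipoprotein D (chr16:31296192-31314808), had 16.6 and 16.5 RPKM of footprints with Gfp shRNA and 3.28, 4.45 and 3.91 RPKM with scramble shRNA. Both Gfp libraries stood clearly above the 3 scramble libraries, by 2.07 ± 0.15 in RPF-seq (limma adjusted p = 0.00157) and by 1.54 ± 0.18 in RNA-seq (adjusted p = 0.0714). Capn6, a calpain that lacks protease activity and binds microtubules (chrX:143802231-143827414), was at 13.7 and 15.1 RPKM in the Gfp RNA libraries and at 3.11, 3.71 and 4.96 RPKM in the scramble RNA libraries. It had the largest RNA-seq increase among called genes (1.87 ± 0.20, limma adjusted p = 0.0576) and a matching RPF-seq increase (1.85 ± 0.17, adjusted p = 0.00348). Dpt, which encodes the matrix protein dermatopontin, had 22.5 and 27.3 RPKM of footprints with Gfp shRNA and 7.65, 8.09 and 5.97 RPKM with scramble shRNA. Aspn, a small leucine-rich proteoglycan, had even footprint levels in the Gfp libraries (9.43 and 9.57 RPKM) and uneven transcript levels (2.07 and 6.31 RPKM). Its RNA-seq groups touched closely, since scramble replicate 3 reached 1.99 RPKM, and only the RPF-seq difference passed (2.06 ± 0.36, adjusted p = 0.0484).

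CC chemokines were among the named increases. Ccl8 was at 15.7 and 18.5 RPKM in the Gfp RNA libraries and at 6.13, 5.84 and 5.53 RPKM in the scramble RNA libraries (1.53 ± 0.13, limma adjusted p = 0.0463), the smallest adjusted p in RNA-seq. Ccl9 was at 120 and 114 RPKM against 48.9, 45.9 and 57.1 RPKM, which made it one of the more abundant genes called in RNA-seq. Ccl6, the neighbour of Ccl9 on chromosome 11, differed by 1.70 ± 0.22 in RPF-seq (adjusted p = 0.0144) and by 1.46 ± 0.23 in RNA-seq (adjusted p = 0.141). Clec3b, which encodes the plasminogen-binding protein tetranectin, had 311 and 410 RPKM of footprints with Gfp shRNA and 137, 140 and 127 RPKM with scramble shRNA. Lmcd1, which encodes a LIM-domain cofactor of GATA factors, was at 4.40 and 4.92 RPKM in the Gfp RNA libraries and at 1.31, 1.80 and 1.58 RPKM in the scramble RNA libraries (1.52 ± 0.19). The remaining RNA-seq calls were Maged2, a member of the MAGE family (0.95 ± 0.11), and the matrix genes Col3a1 and Thbs2 described with their group. Slco2b1, an organic anion transporter, and Islr, a leucine-rich repeat protein of stromal cells, were also among the 10 largest RPF-seq increases, at 1.74 and 1.45.

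Among genes with fewer footprints in Gfp shRNA cells, Fgf2, which encodes a fibroblast growth factor (chr3:37348346-37410108), had the largest decrease. It was at 1.70 and 1.01 RPKM in the Gfp RPF libraries and at 7.68, 3.77 and 2.99 RPKM in the scramble RPF libraries (-1.67 ± 0.37, limma adjusted p = 0.091). The scramble libraries were spread over a wider range than the gap to the Gfp libraries, and no library held more than 40 RPF reads. In RNA-seq Fgf2 was at 0.660 and 1.66 RPKM against 4.36, 3.97 and 4.55 RPKM, groups that were well apart (-1.92 ± 0.33) without passing (adjusted p = 0.154). Msln, which encodes the surface protein mesothelin, had 6.58 and 3.63 RPKM of footprints with Gfp shRNA and 14.3, 13.6 and 11.8 RPKM with scramble shRNA. Other large RPF-seq decreases were Tmem171 (-1.30), the transcription factor gene Tfec (-1.14), the calcium-binding S100a7a (-1.14), the scramblase family gene Plscr2 (-1.09) and Enthd1 (-1.06), and Tmem171 and Enthd1 were below 2 RPKM in all libraries. No decrease passed in RNA-seq. The decreases with the smallest unadjusted p there were Ereg, a ligand of the EGF receptor (-0.78 ± 0.11), Prl2c3 (-0.84 ± 0.12) and Adam12, a metalloprotease gene (-1.38 ± 0.21), with adjusted p from 0.129 to 0.141.

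The proliferins are prolactin-related growth factors secreted by growing mouse fibroblasts, and 3 of 5 family members were measured. Prl2c3 had 14.7 and 11.6 RPKM of footprints with Gfp shRNA and 29.8, 31.6 and 40.9 RPKM with scramble shRNA (-1.36 ± 0.16, limma adjusted p = 0.0107). Every Gfp library lay below every scramble library, as was also so for Prl2c2 (13.7 and 9.42 RPKM against 19.3, 16.1 and 25.5 RPKM; -0.81 ± 0.21, adjusted p = 0.135). Prl2c5 was below 3.2 RPKM in all libraries and overlapped in RPF-seq. The coding sequences of this family are nearly identical and the counting could split their reads, so the values of single members are uncertain.

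**Figure D3:**
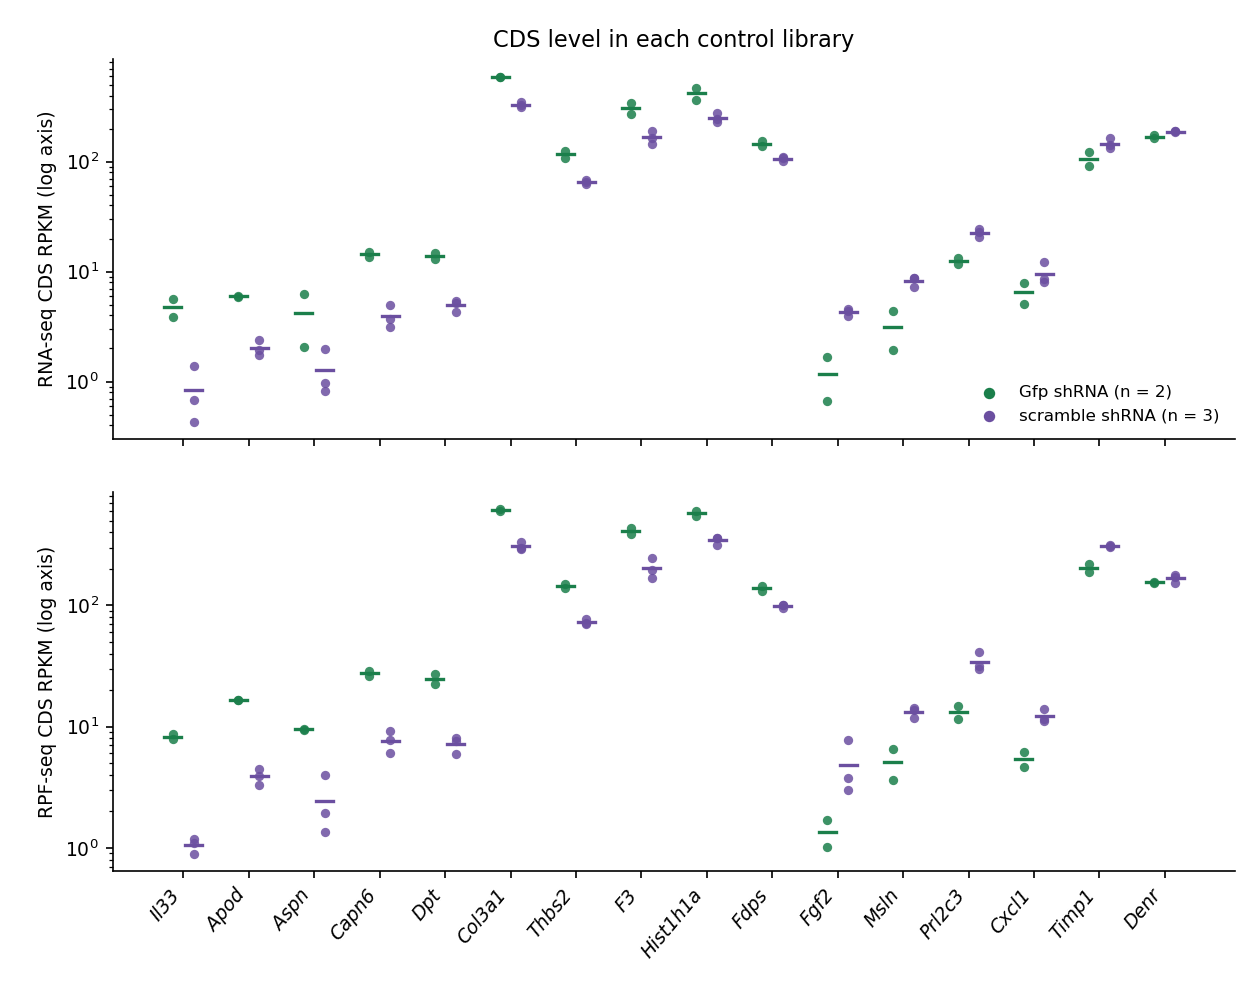
CDS level (RPKM, log axis) of 16 genes in each control library, RNA-seq above and RPF-seq below; points are libraries and bars are group means for Gfp shRNA (n = 2) and scramble shRNA (n = 3). Il33 and Apod are higher in both Gfp libraries of each assay, Fgf2 and Prl2c3 are lower, and Denr differs little.

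Extracellular matrix genes held the most calls of the lists examined. In RPF-seq 9 of 41 measured members rose with Gfp shRNA and 2 fell (26.8% called, against 2.05% of all genes), and the median difference over the members was 0.26, against 0.02 over all genes. In RNA-seq 2 rose and 0 fell, with a median of 0.18. The footprint level of Col3a1, type III collagen (chr1:45311538-45349706), was 603 and 623 RPKM with Gfp shRNA and 334, 299 and 292 RPKM with scramble shRNA. The libraries of each group agreed closely, and the difference passed in RPF-seq (0.99 ± 0.10, limma adjusted p = 0.00467) and in RNA-seq (0.84 ± 0.10, adjusted p = 0.0719). Thbs2, the matrix glycoprotein thrombospondin 2, was at 139 and 151 RPKM against 77.6, 70.6 and 72.2 RPKM in RPF-seq and likewise passed in both assays. Fn1, which encodes fibronectin (0.60), Col6a1 and Col6a2, 2 chains of type VI collagen (0.59 and 0.62), Dcn, the proteoglycan decorin (0.47), and the matrix metalloproteinase genes Mmp2 (0.68) and Mmp14 (0.56) rose in RPF-seq, besides Aspn. Col1a1, a chain of type I collagen, was 0.38 ± 0.14 higher and did not pass. Of the members that fell, Timp1, an inhibitor of metalloproteinases, had 219.6 and 188 RPKM of footprints with Gfp shRNA and 317, 301 and 309.95 RPKM with scramble shRNA (-0.60 ± 0.10). Without scramble replicate 3 the counts were again 9 and 2. Over all genes that fit had 221 increases and 95 decreases, against 150 and 66 in the main fit. Without Gfp replicate 1 the list median in RPF-seq was 0.26, and the calls depended on having both Gfp libraries.

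Several matrix genes are also markers of fibroblasts, and 4 of the 12 measured fibroblast markers rose in RPF-seq (Col3a1, Fn1, Dcn and Pdgfrb, the receptor of platelet-derived growth factor) and 0 fell. This is 33.3% called, against 2.05% of all genes, and Col3a1, Fn1 and Dcn also count in the matrix list. The median over the 12 was 0.31 in RPF-seq, with 10 above 0, and 0.30 in RNA-seq, with 11 above 0. The intermediate filament gene Vim was the only one below 0 in RNA-seq (-0.07) and did not pass. Of the epithelial markers, the keratin gene Krt14 had 8.35 and 8.61 RPKM of footprints with Gfp shRNA and 16.1, 14.6 and 13.2 RPKM with scramble shRNA (-0.78 ± 0.12, limma adjusted p = 0.0285). The other measured epithelial marker, the cadherin gene Cdh1, had 1.25 and 1.06 RPKM of footprints with Gfp shRNA and 1.003, 0.919 and 0.409 RPKM with scramble shRNA (0.59 ± 0.36, limma adjusted p = 0.428), and in RNA-seq its groups overlapped. The summed level of the 2 measured epithelial markers in RNA-seq was 10.7 to 13.5 RPKM with Gfp shRNA and 15.7 to 19.9 RPKM with scramble shRNA, and their part in the differences of matrix genes was not tested.

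Sterol and fatty acid synthesis genes lay on 1 side almost without exception. All 32 measured members had a positive RPF-seq difference, with a median of 0.29, and 31 of 32 had a positive RNA-seq difference, with a median of 0.25. In RPF-seq 4 members rose and 0 fell (12.5% called, against 2.05% of all genes), and in RNA-seq 0 passed. Fdps, which makes farnesyl diphosphate, had 145 and 132 RPKM of footprints with Gfp shRNA and 100, 95.9 and 101 RPKM with scramble shRNA (0.48 ± 0.09, limma adjusted p = 0.0539). The groups did not overlap, which held for 36.7% of all genes in RPF-seq and for 23 of the 32 members. The others that passed were Srebf2, the transcription factor that drives cholesterol synthesis genes (0.47), the mevalonate kinase gene Mvk (0.44) and the lanosterol synthase gene Lss (0.40). The fatty acid synthase gene Fasn differed by 0.05 and did not pass. The count of increases was 9 without scramble replicate 3 and 17 with all 4 hairpins in the fit. Over all genes the increases in RPF-seq numbered 150 in the main fit, 221 without scramble replicate 3 and 566 with all 4 hairpins. Without Gfp replicate 1 the list median was 0.23, and the calls depended on having both Gfp libraries.

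Replication-dependent histone genes, which are transcribed in S phase and end without a poly(A) tail, were measured in these rRNA-depleted libraries for 18 of 20 listed members. All 18 had a positive RNA-seq difference, with a median of 0.54, and 0 passed there. In RPF-seq 4 rose (Hist1h1a, Hist1h1b, Hist1h3a and Hist2h2ac) and 0 fell (22.2% called, against 2.05% of all genes), and the median was 0.30. Hist1h1a, a linker histone gene, was at 544 and 606 RPKM in the Gfp RPF libraries and at 363, 359 and 317 RPKM in the scramble RPF libraries (0.73 ± 0.10, limma adjusted p = 0.0211). Hist2h3c2 had a negative RPF-seq difference (-0.64) and a positive RNA-seq difference (0.36). Core histone genes share near-identical coding sequences, so reads may be divided among them arbitrarily. With all 4 hairpins in the fit 0 of the 18 passed in RPF-seq, while 892 of all 10516 genes did. Without Gfp replicate 1 the list median in RPF-seq was 0.44, and the calls depended on having both Gfp libraries.

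Genes of G2 and mitosis lay on the opposite side. Of 30 measured members, 29 had a negative RPF-seq difference, with a median of -0.25, and 2 fell (6.67% called, against 2.05% of all genes). Kif20a, a kinesin of cytokinesis, had 155 and 155 RPKM of footprints with Gfp shRNA and 193, 208 and 213 RPKM with scramble shRNA (-0.40 ± 0.09, limma adjusted p = 0.0835), and the transcription factor gene Foxm1 fell by 0.39. In RNA-seq the median was -0.24 and 0 members passed. The number that fell in RPF-seq was 6 without scramble replicate 3 and 11 with all 4 hairpins in the fit. Over all genes the decreases in RPF-seq numbered 66 in the main fit, 95 without scramble replicate 3 and 326 with all 4 hairpins. Without Gfp replicate 1 the list median was -0.28, and the calls depended on having both Gfp libraries. Genes of G1/S and replication had medians of -0.03 in RPF-seq and 0.06 in RNA-seq, with 0 of 26 members called.

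Of the 14 measured members of the list of chemokines and NF-kB targets, which does not hold Ccl6, Ccl8 and Ccl9, 3 fell in RPF-seq and 0 rose (21.4% called, against 2.05% of all genes), although the median over the members was 0.16. Ccl6, Ccl8 and Ccl9 rose in RPF-seq, as given above. Cxcl1, a neutrophil-attracting chemokine, had 6.20 and 4.61 RPKM of footprints with Gfp shRNA and 11.1, 11.5 and 14.04 RPKM with scramble shRNA (-1.17 ± 0.16, limma adjusted p = 0.0199). Cxcl5 (-0.94) and Ptgs2, which encodes the inducible cyclooxygenase (-0.50), also fell. The abundant Ccl2 and Ccl7 had differences of 0.21 and 0.24 and did not pass. Of the YAP/TEAD targets only F3, tissue factor, rose in RPF-seq (1 of 17, 5.88%), with 388 and 431 RPKM against 169, 195 and 247 RPKM (1.02 ± 0.15, adjusted p = 0.0251). In the TGF-beta list Tgfbi rose (0.52) and 1 of the 15 members fell (13.3% called).

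In the lysosome list Gpnmb (0.56) and Atp6v0d1, a subunit of the proton pump (0.38), rose in RPF-seq, 2 of 21 members with a median of 0.26. Like the sterol list it lay mostly on 1 side, with 19 members above 0 in RPF-seq and 20 in RNA-seq. In the list of ER chaperones and the unfolded protein response Xbp1 (0.45) and Edem1 (0.40) rose, 2 of 19 members with a median of 0.17. Here 18 members were above 0 in each assay. Single members rose in the lists of p53 targets (Gadd45a, 0.58; 1 of 18, list median -0.01), ATF4 targets (Ddit4, 0.43; 1 of 25, median 0.04), glycolysis and hypoxia (Pdk1, 0.45; 1 of 27, median 0.09) and core clock genes (Rora, 0.70; 1 of 17, median 0.22), against 2.05% of all genes called. Clock itself differed by -0.13 in RPF-seq and by -0.52 in RNA-seq and did not pass.

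Lists of RNA interference machinery and of interferon-stimulated genes were also examined, and a part of the hairpin in their values was not tested. None of the 12 measured genes of RNA interference machinery passed in either assay, and the median difference was -0.07 in RNA-seq and -0.10 in RPF-seq. Of the interferon-stimulated genes, which respond to double-stranded RNA, 0 of 18 measured passed, 8 of 18 had libraries that did not overlap in RPF-seq (against 36.7% of all genes), all higher with Gfp shRNA, and the RPF-seq median was 0.31. With all 4 hairpins in the fit 5 of these 18 rose in RPF-seq and 0 fell, while 566 of all 10516 genes rose and 326 fell. In RNA-seq the list median was 0.17. Libraries did not overlap there for 8 of the 18 members higher and 2 lower with Gfp shRNA, against 27.9% of all genes in RNA-seq. Immediate early factors, contractile genes, Nrf2 targets, heat shock genes, amino acid transporters, translation initiation factors, mitochondrial ribosomal proteins and oxidative phosphorylation subunits had 0 calls in both assays. Some of these lists still lay mostly below 0 in RPF-seq. This held for 12 of 13 heat shock genes (median -0.22) and 33 of 36 initiation factors (median -0.09). It also held for 56 of 74 mitochondrial ribosomal proteins and 46 of 73 oxidative phosphorylation subunits. The other 4 lists were divided between both sides. For the 72 cytosolic ribosomal protein genes the RPF-seq median was -0.21, with 58 members below 0, and the RNA-seq median was -0.06. None of the 72 passed in either assay.

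**Figure D4:**
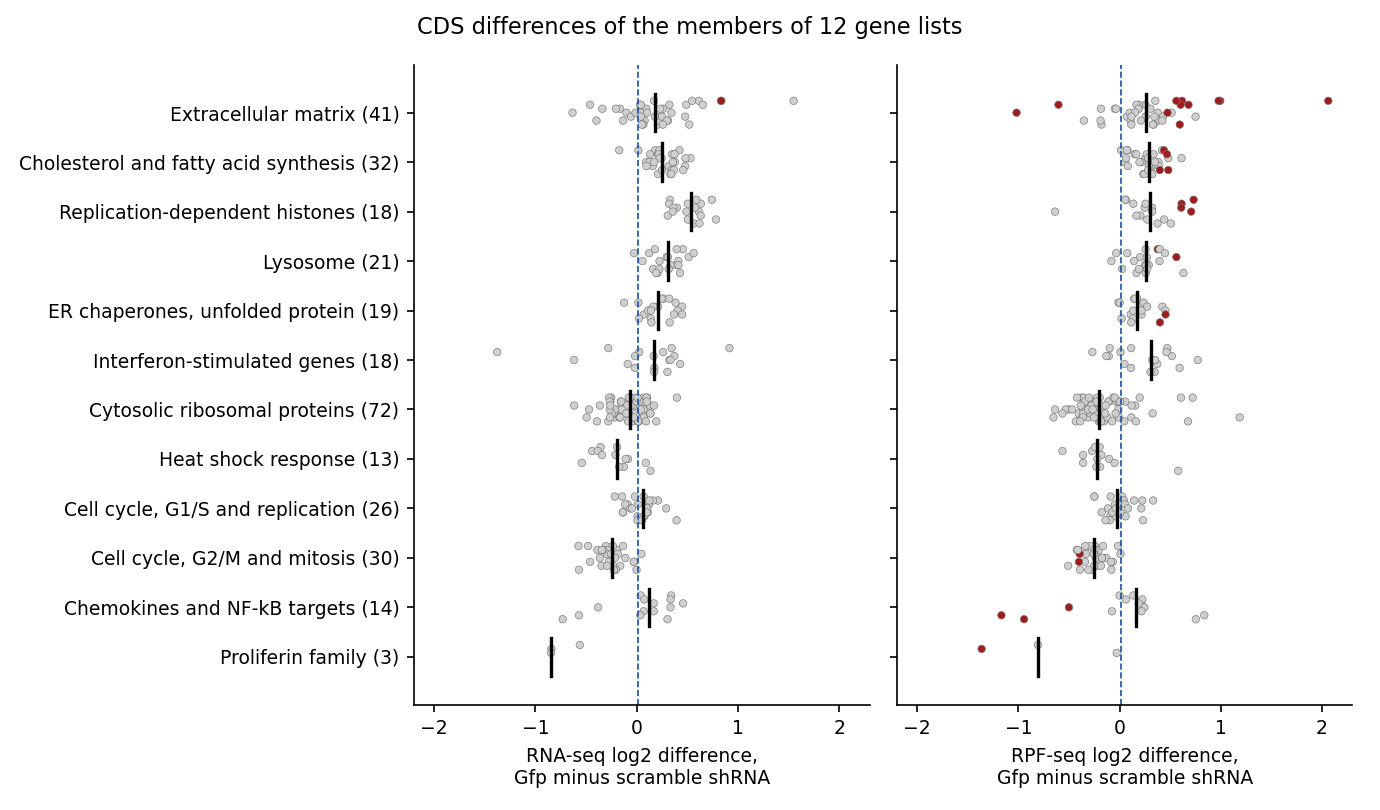
Log2 difference of the CDS (Gfp minus scramble shRNA) of every measured member of 12 gene lists, in RNA-seq on the left and RPF-seq on the right; red points were called by limma at an FDR below 0.1, black bars are list medians, dashed lines are the medians over all genes, and list sizes are in parentheses. Most members of the G2/M list lie left of the all-gene median and most of the sterol list right of it, and 11 of the 41 matrix genes are red in RPF-seq.

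For translation efficiency, genes with the smallest unadjusted p are given although none passed. Myl4, a myosin light chain gene, had log2 TE values of 0.91 and 0.78 with Gfp shRNA and of -0.03, 0.05 and -0.11 with scramble shRNA (0.88 ± 0.12). The libraries did not overlap, as was so for 13.1% of all genes. Fcor (0.90) and Irgm2 (0.89) had the next smallest p among higher values, and Tmem100 (-1.56) and Kctd11 (-0.74) were among those with the smallest p for lower values. Fcor and Tmem100 had no library with more than 23 reads in either assay. The limma adjusted p of these 5 genes was 1.00.

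Levels in the Denr knockdown libraries are set beside the controls without a test, since both hairpin comparisons would share the control samples. Capn6 footprints averaged 27.6 RPKM with Gfp shRNA and 7.67 RPKM with scramble shRNA, and 30.7 and 24.7 RPKM with Denr shRNA1 and shRNA2. Col3a1 averaged 613 and 308 RPKM in the controls and 595 and 416 RPKM with the Denr shRNAs, and F3 409.9 and 204 RPKM in the controls and 438 and 389 RPKM with the Denr shRNAs. The knockdown means of Capn6 and F3 were nearer to Gfp than to scramble shRNA, and for Col3a1 the mean with Denr shRNA1 was nearer to Gfp and that with Denr shRNA2 nearer to scramble shRNA. Dpt differed between the knockdowns themselves, with 35.4 RPKM for Denr shRNA1 and 7.35 RPKM for Denr shRNA2, beside 24.9 and 7.23 RPKM in the controls. Fgf2, at 4.19 and 5.96 RPKM with the Denr shRNAs, was nearer to scramble (4.81 RPKM) than to Gfp shRNA (1.36 RPKM), and Cxcl1, at 3.07 and 2.36 RPKM, lay below both controls. Over all genes the mean distance between RPF libraries was 0.324 from Gfp to scramble shRNA. The distances from Gfp to Denr shRNA1 and shRNA2 were 0.289 and 0.281, and those from scramble were 0.369 and 0.357. In RNA-seq the mean distance was 0.322 from Gfp to scramble shRNA. From Gfp to Denr shRNA1 and shRNA2 it was 0.324 and 0.298, and from scramble shRNA 0.377 and 0.329. All mean distances to scramble shRNA include scramble replicate 3, the scramble library farthest from its group. In RPF-seq no Gfp library was more than 0.311 from a Denr shRNA library. Every scramble library, replicate 3 or not, was at least 0.323 from each of them. In RNA-seq the single distances overlapped, at 0.239 to 0.463 from Gfp and 0.281 to 0.595 from scramble shRNA.

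On the 5′ UTR, 40 of 10400 genes were called in RPF-seq (0.385%) and 13 in RNA-seq (0.125%, all higher). Of the 40, 33 were higher with Gfp shRNA (0.317%) and 7 lower (0.0673%). At an unadjusted p below 0.05, 357 5′ UTRs (3.43%) passed in RPF-seq, 140 higher and 217 lower. In RNA-seq 439 (4.22%) passed, 256 higher and 183 lower. Both shares are under the 0.05 that such a threshold passes on average when nothing differs. The direction of the calls was not stable: without scramble replicate 3 there were 6 higher and 16 lower in RPF-seq and 12 higher and 16 lower in RNA-seq. These calls rested on very few reads. In 38 of the 40 RPF-seq calls and in all 13 RNA-seq calls 1 group had 0 reads in every library, and 34 and 11 of the calls had at most 3 reads in any library. Agap3 had 3 and 2 footprints on its 30-base 5′ UTR in the Gfp libraries and 0 in each scramble library, and Rars 2 and 1 against 0. Apopt1, Dctn3 and Nova1 were alike, as were Dtd2, Zfp703, Zc3h3, Kmt2a and Orc3 in RNA-seq, of which Dtd2 had the most reads (4 and 3 against 0). In the other direction Snapin had 0 and 0 footprints against 2, 4 and 8, Hoxa4 0 and 0 against 3, 2 and 5, Fkbp15 0 and 0 against 2, 4 and 6, and Tcp11x2 0 and 0 against 1, 1 and 2. A count of 1 to 3 reads gives no usable fold. With the test restricted to the 5175 genes with at least 20 RPF reads on the 5′ UTR in 9 of the 11 RPF libraries of the series, limma called 0 genes in either assay, with 158 (RPF-seq) and 191 (RNA-seq) at an unadjusted p below 0.05.

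Hdgfl2, a chromatin reader of the HDGF family (chr17:56079634-56100607), was the only called 5′ UTR with that coverage. It held 19 and 12 footprints with Gfp shRNA and 33, 33 and 62 with scramble shRNA, or 10.2 and 9.57 RPKM against 29.9, 29.3 and 31.2 RPKM. Replicates lay close together and the groups did not overlap, as was so for 15.1% of 5′ UTRs (-1.60 ± 0.08, limma adjusted p = 0.0222). The SE rests on the spread between these libraries, and with 12 to 62 reads per library the counting error may exceed it. On its CDS the RPF-seq difference was 0.02 ± 0.11, and on the 5′ UTR in RNA-seq it was -0.46 ± 0.10. Within the 5175 covered genes the RPF-seq difference did not pass (adjusted p = 0.377). No 5′ UTR decrease passed in RNA-seq, and those with the smallest unadjusted p were Col10a1 (0 and 0 reads against 1, 1 and 1), Ccdc66 (0 and 0 against 2, 1 and 2) and the well-read Cavin2 (382 and 387 against 770, 717 and 368 reads). By RPKM its groups did not overlap, which held for 19.6% of 5′ UTRs in RNA-seq, and the difference was -0.88 ± 0.10 (limma adjusted p = 0.358).

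The 5′ UTR level relative to the CDS was compared over the 5175 covered genes, as the median in each library of log2(5′ UTR RPKM + 0.1) minus log2(CDS RPKM + 0.1). In RPF-seq it was -1.17 and -0.68 in Gfp replicates 1 and 2, and -0.91, -0.74 and -1.04 in scramble replicates 1, 2 and 3. The Gfp libraries were the lowest and the highest of the 5, and the scramble libraries lay between them. After the mean of the 5 control libraries was subtracted gene by gene, the group means differed by -0.044 (two-sided exact permutation test over 10 splits, p = 1). Leaving out Gfp replicate 1 turned the difference to 0.202 and leaving out scramble replicate 2 to 0.037. In RNA-seq the library medians were -0.92 and -0.97 with Gfp shRNA and -0.95, -0.90 and -1.17 with scramble shRNA, a centred difference of 0.055 (exact permutation test, p = 0.9) that was -0.021 without scramble replicate 3. The share of reads on 5′ UTRs in the RPF libraries followed the same order at its ends, from 5.52% in Gfp replicate 1 to 7.37% in Gfp replicate 2. The 6 knockdown RPF libraries had medians from -0.70 to -0.45, a range that Gfp replicate 2 entered.

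**Figure D5:**
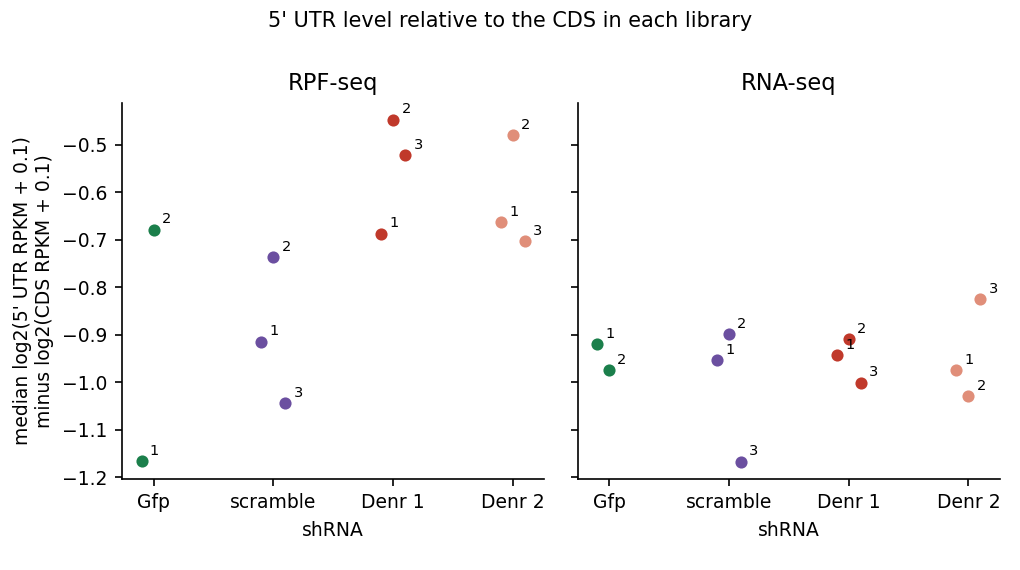
Median over 5175 covered genes of log2(5′ UTR RPKM + 0.1) minus log2(CDS RPKM + 0.1) in each library, RPF-seq on the left and RNA-seq on the right, by hairpin, with replicate numbers beside the points. In RPF-seq Gfp replicates 1 and 2, at -1.17 and -0.68, lie on either side of the 3 scramble libraries.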

How the data were processed

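RPF-seq and RNA-seq libraries of 11 NIH3T3 lysates were represented by per-sample tables of RPKM on the CDS and on the 5′ UTR of 10516 genes. Per the study's methods and the submitters' processing notes, the authors trimmed reads with cutadapt, aligned them with Bowtie2 (2.2.1) and TopHat2 (2.0.11) to GRCm38/mm10, counted them on isoforms found expressed with Cufflinks (2.2.1), footprints by A-site and RNA by 5′ end, dropped mitochondrial and thinly read genes, and deposited RPKM values scaled by the upper quartile with edgeR, separately per assay, without pooling replicates. Scaling within an assay hides any change in total RNA or footprints, and values of low genes move in steps of whole reads.

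The 231352 values for CDS and the 228800 finite ones for 5′ UTR were all whole multiples of 1 read within 0.01 reads, which gave reads per gene and depth; 116 genes without a 5′ UTR value were left out there. Groups were taken from the sample titles. Log2(RPKM + 0.1) of the 5 control libraries of an assay was fitted with limma (3.58.1, R 4.3.3; lmFit, eBayes with trend) and adjusted by Benjamini-Hochberg over all genes; TE was RPF minus RNA of a lysate. SE is that of the limma fit. The fit had 3 residual degrees of freedom. Single values per library were compared by exact permutation over the 10 splits. P-values measure the spread between these samples only, and counting limits cover counting error only. Replicates differed by more than sampling noise (chi-square per gene 4.89 to 27.8). Gene positions are those of the GENCODE annotation of GRCm38. Steps were tested on simulated data.

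Genes named are the 10 largest increases and decreases past the FDR of 0.1 with separate libraries and a mean of at least 1 RPKM (5 for TE and 5′ UTR), the smallest p where fewer than 3 passed, up to 4 members per list, and Denr, Mcts1 and Eif2d. Further list members were named after their values were seen. Members and lists were chosen with earlier results of these data known. Hairpin sequences of the controls were not used here, and some genes that the rule names are not reported here. Alternatives tried were the pseudocount, filters, centring, no trend, all 4 hairpins in the fit, a replicate block, limma-voom on recovered reads and leaving out each library. Counts for single lists without a library, and the fit of all 4 hairpins without scramble replicate 3, were added after seeing the data.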

Additional observations from a re-analysis of the deposited data

How the results depend on the processing

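The control comparison has 2 against 3 libraries, and its counts of CDS calls moved more with the choice of libraries than with the pseudocount or centring. RNA-seq CDS calls numbered 10, against 74 with all 4 hairpins in the fit (47 with scramble replicate 3 also left out) and 20 with limma-voom on recovered reads, and leaving out single libraries gave 0 to 10. RPF-seq CDS calls numbered 216, against 79 without the trend, 892 with all 4 hairpins (553 with scramble replicate 3 also left out) and 377 with limma-voom, and leaving out single libraries gave 4 to 316; where 1 Gfp library was left, it was assumed to vary like the others. Pseudocounts of 0.01 and 1, centring and a mean of at least 1 RPKM gave 204 to 218 RPF-seq calls and 10 RNA-seq calls. TE had 0 calls under every alternative. RPF-seq 5′ UTR calls (40) were 5 with a pseudocount of 1 (2 higher, 3 lower), 57 with 0.01, 0 with a mean of at least 1 RPKM, 0 with centring, 0 with the coverage filter, 3 with all 4 hairpins (5 with scramble replicate 3 also left out) and 22 to 153 with single libraries left out. RNA-seq 5′ UTR calls (13) were 22 and 8 with pseudocounts of 0.01 and 1, 0 with the filter on the mean, 0 with the coverage filter, 4 with all 4 hairpins (6 with scramble replicate 3 also left out) and 20 to 35 with single libraries left out. The cause of these moves was not tested.

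Replicate numbers were shared by 2 Gfp and 2 scramble libraries, and nothing in the labels says that a number marks a shared batch. Deviations of same-numbered control libraries from their group means correlated at 0.53 and -0.054 in RNA-seq and at -0.0034 and 0.23 in RPF-seq, so the controls were taken to share only a number. Over all 4 hairpins, 13 of 15 same-numbered pairs of RPF libraries and 10 of 15 of RNA libraries correlated above 0.1. This compares with 4 and 5 of 30 pairs with different numbers, which is a hint from the data and not given by the design. The 2 Gfp libraries deviate from their mean by equal and opposite amounts, so their correlations mirror each other. The pairs counted are therefore not independent. With the replicate block there were 852 RNA-seq and 960 RPF-seq CDS calls, on 1 residual degree of freedom, and 157 and 1437 with the block and all 4 hairpins in the fit. On the 5′ UTR the block gave 0 calls in both assays, and 2 in RPF-seq and 3 in RNA-seq with all 4 hairpins.

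Of the relative 5′ UTR values, the RPF-seq difference ranged from -0.298 to 0.202 with single libraries left out, reversed without Gfp replicate 1 (0.202) and without scramble replicate 2 (0.037). The RNA-seq difference ranged from -0.021 to 0.104 and reversed without scramble replicate 3 (-0.021) and with labels exchanged within the replicate block (-0.023). The separation of libraries ranged from 0.011 to 0.092 in RNA-seq and from 0.022 to 0.075 in RPF-seq. Among the single genes refitted, only Eif2d, near 0 throughout, turned sign: in RNA-seq to -0.00573 with the block, -0.0171 with the block and all 4 hairpins, -0.12 without Gfp replicate 1, -0.00599 without scramble replicate 2 and -0.00573 without scramble replicate 3 (range -0.12 to 0.14 with single libraries left out), and in RPF-seq to 0.031 without Gfp replicate 2 (range -0.13 to 0.031). Of the 70 single-gene calls named, 47 no longer passed without Gfp replicate 1, 55 without Gfp replicate 2, 40 without scramble replicate 2 and 13 without scramble replicate 3, and 0 changed sign. The groups of the named calls did not overlap, so leaving out a library could not change the sign of a call. Depth limits genes under about 10 reads per library, such as most called 5′ UTRs.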

Other observations

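Other genes past the threshold in RPF-seq fall into recognisable kinds, chosen here after their values were seen and given without a test of the kind. Growth factors were among the decreases. Hbegf, a ligand of the EGF receptor, had 12.8 and 10.8 RPKM of footprints with Gfp shRNA and 19.8, 20.4 and 21.2 RPKM with scramble shRNA (-0.80 ± 0.11, limma adjusted p = 0.0199). Btc (-0.82) and Ereg (-0.54), which encode ligands of the same receptor, and the cytokine gene Clcf1 (-0.54) also fell. On the other side, Ptn, which encodes the heparin-binding growth factor pleiotrophin, was abundant and rose from 378, 405 and 391.5 RPKM with scramble shRNA to 716 and 760 RPKM with Gfp shRNA (0.91 ± 0.09, adjusted p = 0.00496), and Igf2 rose by 0.97 ± 0.18.

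Txnip, which restrains glucose uptake, had 201 and 195 RPKM of footprints with Gfp shRNA and 126, 116.2 and 101 RPKM with scramble shRNA (0.80 ± 0.11, limma adjusted p = 0.0185). Pdk4, a kinase that inhibits pyruvate dehydrogenase (0.72), the atypical cyclin gene Ccng2 (0.69), Bmf, a pro-apoptotic BH3-only gene (1.33), and Klhl24 (0.86) also rose in RPF-seq. In RNA-seq these 5 genes differed by 0.57 to 0.95 and none passed.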
